A study of Mus musculus with 48 samples.

Results

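Gas5 and the Snhg genes are noncoding host genes: their spliced RNAs encode no known protein, and their introns carry small nucleolar RNAs (snoRNAs), which guide the chemical modification and processing of other RNAs, chiefly ribosomal RNA. Once a snoRNA has been cut from its intron, the spliced host RNA is usually a substrate of nonsense-mediated decay, so that transcription, splicing and decay all set its level. Several host genes begin with a run of pyrimidines and are co-regulated with the genes of ribosomal proteins. Malat1 and Neat1 are nuclear RNAs of nuclear speckles and paraspeckles and host no snoRNA.

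The rule named 9 genes by symbol, namely Gas5, Snhg1, Snhg3, Snhg5, Snhg6, Snhg8, Snhg12, Malat1 and Neat1. Of these, 6 were among the 11313 symbols of the exon and intron tables, and the other three (Snhg6, Malat1 and Neat1) were not analysed here. The cells were NIH 3T3, an immortalised mouse embryonic fibroblast line. A stable line with a control hairpin (shCTRL) was compared with 1 stable line carrying a hairpin against Bmal1 (shBmal1), the activator of the circadian clock that the tables list as Arntl. A 2 h pulse of 50% horse serum set the clocks of both lines in phase, after which cultures were taken every 2 h from 24 to 46 h. Each culture gave a library of total RNA and a library of RNA labelled with 4-thiouridine (4sU), a uridine analogue that marks RNA made during the labelling, which was then pulled out through biotin and streptavidin. That made 48 libraries in 4 groups of 12, with 1 library per group and time point. There was 1 line of each kind, so the 12 libraries of a group are 12 cultures of 1 line, and differences between the hairpins and differences between the lines cannot be told apart. The labels also state that a larger share of the RNA entered the pull-down in shBmal1 than in shCTRL.

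Library totals recovered from the RPKM values (reads per kilobase of feature, scaled to library size) ran from 48873013 to 76260143 reads. Arntl was lower in shBmal1 at 9 of 12 time points in total RNA, with a median of 3.95 RPKM against 8.74 RPKM in shCTRL. Of 11 fibroblast markers 10 were listed, and their summed level ran from 6013 to 6826 RPKM in shCTRL and from 4938 to 5912 RPKM in shBmal1. All 10 differed by the limma test used below. Pdgfra (-1.69, log2, shBmal1 minus shCTRL), Dcn (-1.37), Col3a1 (-0.89), Fn1 (-0.80), Pdgfrb (-0.74), Thy1 (-0.60) and Col1a2 (-0.20) were lower in shBmal1. S100a4 (0.26), Vim (0.13) and Col1a1 (0.11) were higher. Of markers of other cell types, Krt14 (epithelial, 1 of 5 listed) averaged 3.14 RPKM in shCTRL and 9.79 RPKM in shBmal1, Plin4 (adipocyte, 1 of 3) ran from 2.99 to 4.48 RPKM and from 2.02 to 2.84 RPKM, and Des (muscle, 1 of 3) from 0.540 to 0.973 RPKM and from 1.48 to 1.98 RPKM, and these 3 differed between the lines by the limma test used below. The sum of 3 of 5 leukocyte markers overlapped, from 13.4 to 20.5 RPKM and from 16.9 to 23.2 RPKM. Among them Lyz2 was higher in shBmal1, and Cd68 (adjusted p = 0.0762) and Cd14 (adjusted p = 0.419) did not pass. The endothelial marker Cdh5 (1 of 3), with levels from 0.244 to 0.547 RPKM and from 0.315 to 0.872 RPKM, was under the filter on low values and was not tested. None of 3 neural markers was listed. The part of these markers in the results was not tested. The shBmal1 culture of 34 h stood apart within its line: 24.6% of 10912 genes had their lowest shBmal1 total exon value there, and 24.5% their highest. This was not particular to that culture. At 30 h in shCTRL 22.9% of genes had their lowest shCTRL total exon value and 24.1% their highest. In total introns 25.3% were lowest at 30 h in shCTRL, against 22.3% at 34 h in shBmal1. Results that rest on the 34 h culture are given with and without it. The 30 h cultures were left out only among the alternative settings.

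In the RefSeq annotation of GRCm38.p6, which is the build of the tables, all 6 genes are long noncoding RNA genes. Gas5 lies at chr1:161034601-161038539 and holds 8 annotated snoRNA genes within its span. Snhg1, at chr19:8723487-8726326, also holds 8. Snhg12, at chr4:132308678-132311024, holds 4 (Snora16a, Snora44, Snora61 and Snord99). Snhg3, at chr4:132351933-132353686, holds 2, Snora73a and Snora73b, the U17 snoRNAs. Snhg5, at chr9:88521052-88522897, holds 2, and Snhg8, at chr3:123507552-123508336, holds 1, Snora24. The span of Gas5 overlaps the protein-coding gene Zbtb37. The libraries were strand-specific, but no source used here says whether the counting used strand, so Gas5 values may include reads of overlapping genes.

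The exon and intron values do not divide these short genes cleanly. The feature lengths behind the RPKM of these genes were recovered in all 48 libraries, except for the Snhg3 intron (24 libraries). For all 6 genes the exon length plus the intron length exceeded the RefSeq span: 2549 plus 3503 bases for Gas5 (span 3939), 2725 plus 2364 for Snhg1 (2840), 578 plus 2659 for Snhg3 (1754), 1778 plus 26140 for Snhg5 (1846), 775 plus 405 for Snhg8 (785) and 1413 plus 1741 for Snhg12 (2347). For Snhg8, Snhg5 and Snhg1 the exon length alone came to 98.7%, 96.3% and 96.0% of the span. Exon values of these genes may therefore take in bases that RefSeq places in introns, or bases outside the RefSeq span. Exon and intron features of all 6 genes may share bases, so the 2 kinds of value are not separate measures. Most of the Snhg5 intron feature must lie outside its RefSeq span. Reads from the snoRNAs could not be told apart from reads of their hosts.

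The sequences around the annotated start sites are shown because 5 of the 6 genes were higher in shBmal1 in total RNA, and because host genes are known for particular start sites. Each line runs 5′ to 3′ on the transcribed strand, from 60 bases before the start site to its first 40 bases, in GRCm38.p6 from RefSeq. Capitals mark TATANA (either strand, positions -45 to -15) and CTTT (transcribed strand, positions -10 to 30). Both motifs were chosen after these sequences had been seen. RefSeq gives Gas5 a pair of windows, and the one printed is the downstream one; the other held neither motif.
Gas5 (chr1:161035106-161035205, plus strand): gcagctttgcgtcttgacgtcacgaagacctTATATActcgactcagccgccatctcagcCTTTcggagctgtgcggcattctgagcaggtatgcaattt
Snhg1 (chr19:8723427-8723526, plus strand): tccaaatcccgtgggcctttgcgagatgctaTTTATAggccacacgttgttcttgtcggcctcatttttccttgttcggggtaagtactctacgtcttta
Snhg3 (chr4:132353647-132353746, minus strand): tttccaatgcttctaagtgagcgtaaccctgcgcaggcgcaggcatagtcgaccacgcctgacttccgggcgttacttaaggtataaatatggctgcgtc
Snhg5 (chr9:88522858-88522957, minus strand): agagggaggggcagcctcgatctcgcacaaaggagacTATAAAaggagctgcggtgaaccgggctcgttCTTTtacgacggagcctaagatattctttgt
Snhg8 (chr3:123508297-123508396, minus strand): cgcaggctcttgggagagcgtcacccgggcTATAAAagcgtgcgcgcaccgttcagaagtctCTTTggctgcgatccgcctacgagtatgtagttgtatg
Snhg12 (chr4:132308618-132308717, plus strand): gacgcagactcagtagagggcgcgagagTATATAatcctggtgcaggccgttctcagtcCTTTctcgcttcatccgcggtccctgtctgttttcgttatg

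As TATANA and CTTT were chosen after these sequences had been seen, their counts against all windows are descriptions and not tests. Whether either motif bears on the differences between the lines was not tested. TATANA was present in 5 of the 7 windows of these genes, against 4.32% of 32851 RefSeq promoter windows searched over the same stretch. Its first base lay at position -29 in the printed Gas5 window, -30 in Snhg8, -32 in Snhg12 and -23 in Snhg5. In Snhg1 the match was on the opposite strand, at -29. The printed Snhg3 sequence holds TATAAA after the annotated start site, outside the stretch searched, so it was not counted. CTTT was present in 4 of the 7 windows and in 14.6% of all windows, and began at position 1 in Gas5, 3 in Snhg8, -1 in Snhg12 and 10 in Snhg5. CACGTG, the E-box letters that the BMAL1 and CLOCK dimer is known to bind, was searched over the whole window from -250 to 50. It was found in 0 of the 7 windows and in 7.15% of all windows.

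Levels below are RPKM after each kind of library had been scaled to a common median gene. The hosts differed widely in level. In total RNA of shCTRL, Snhg3 averaged 198.7 ± 20.7 RPKM at its exons (SD, n = 12), followed by Snhg8 at 26.1 ± 1.90, Gas5 at 13.6 ± 1.72, Snhg1 at 11.9 ± 1.33, Snhg12 at 7.52 ± 0.573 and Snhg5 at 3.42 ± 0.586. Gas5 (11.7 to 16.3 RPKM) and Snhg1 (9.79 to 14.6 RPKM) overlapped, and the other neighbours in this order did not. In shBmal1 Gas5 and Snhg1 again overlapped, with means of 18.9 ± 2.52 and 19.3 ± 2.56 RPKM. The exon values rested on 259 to 11505 reads per gene and library. Intron values rested on 245 reads or more, except for Snhg8, whose short intron had 49 to 134 reads.

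**Figure D1:**
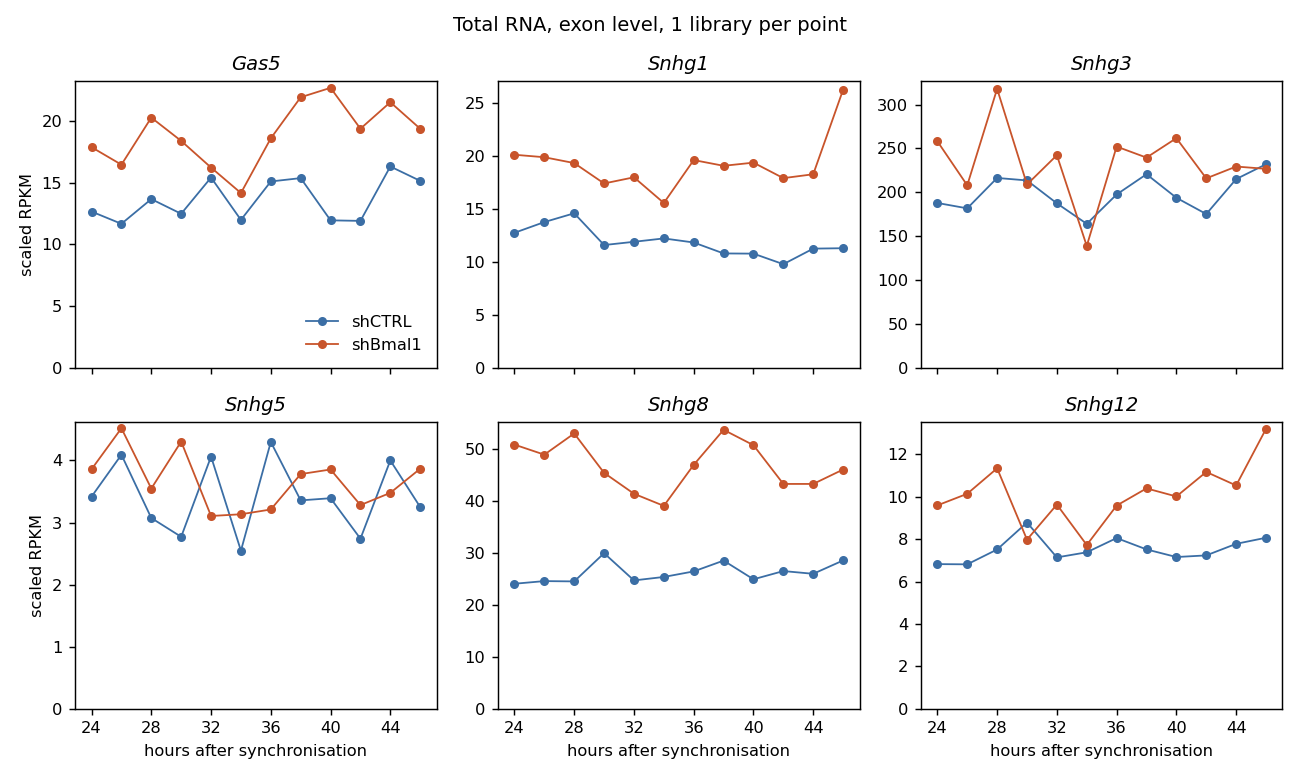
Exon level in total RNA (scaled RPKM, vertical axis from 0) of the 6 host genes against hours after synchronisation, 1 point per library, shCTRL in blue and shBmal1 in orange. Snhg1 and Snhg8 are higher in shBmal1 at all 12 time points without overlap, the lines cross for Snhg3, Snhg5 and Snhg12, and the shBmal1 point of 34 h is the lowest of its line for every gene but Snhg5.

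The first comparison asked whether host RNA levels differed between the knockdown and the control line. In total RNA, 5 of the 6 hosts were higher in shBmal1 at their exons and none was lower, beside 34.4% of all 10912 genes tested that were higher by the same test (limma, adjusted p under 0.05). The median difference over the 6 hosts was 0.44 on the log2 scale, and over all genes 0.01. Of all genes called in total exons 50.98% were higher in shBmal1, against 65.7% without scaling, and in 4sU exons 50.5% against 66.4%; the number of hosts called stayed within 1 of the main count. In bulk RNA, a change in the number of cells making an RNA and a change in RNA per cell cannot be told apart.

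Snhg8, the host of Snora24, differed most. It ran from 24.0 to 29.9 RPKM in shCTRL, with a median of 25.6, and from 39.0 to 53.6 RPKM in shBmal1, with a median of 46.4. The lines did not overlap. The difference was 0.84 ± 0.042 (log2, SE), or 1.78-fold, with an adjusted p of 4.93e-13, and 141 of the 10912 genes had a larger one.

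Snhg1 likewise showed no overlap. It ran from 9.79 to 14.6 RPKM in shCTRL (median 11.7) and from 15.6 to 26.3 RPKM in shBmal1 (median 19.2), a difference of 0.69 ± 0.050 or 1.61-fold (adjusted p = 1.74e-10). Its highest shBmal1 value was the last, at 46 h.

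Gas5, named for its rise in growth-arrested cells, ran from 11.7 to 16.3 RPKM in shCTRL (median 13.2) and from 14.2 to 22.7 RPKM in shBmal1 (median 18.997). It was higher in shBmal1 at all 12 time points, and 10 of the shBmal1 libraries lay above every shCTRL library. The difference was 0.47 ± 0.064, or 1.38-fold (adjusted p = 2.14e-06).

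Snhg12 ran from 6.82 to 8.79 RPKM in shCTRL (median 7.45) and from 7.73 to 13.2 RPKM in shBmal1 (median 10.1). It was higher in shBmal1 at 11 of 12 time points, by 0.41 ± 0.060 or 1.33-fold (adjusted p = 4.41e-06).

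Snhg3 and Snhg5 differed least. Snhg3 ran from 164.0 to 231.9 RPKM in shCTRL (median 195.6) and from 138.8 to 317.8 RPKM in shBmal1 (median 234.4), with a difference of 0.21 ± 0.086 (adjusted p = 0.0340). It was higher in shBmal1 at 9 of 12 time points, and the call was lost when any of 24, 28, 32, 36, 40, 42 or 44 h was left out (adjusted p up to 0.1002). Without the 34 h cultures the Snhg3 difference was 0.25 ± 0.071 (adjusted p = 0.00439). Snhg5, the host of the U50 snoRNAs, did not pass: it ran from 2.55 to 4.30 RPKM in shCTRL (median 3.37) and from 3.11 to 4.52 RPKM in shBmal1 (median 3.66), a difference of 0.11 ± 0.084 (adjusted p = 0.268). Without 34 h, the differences of the other called hosts were 0.84 for Snhg8, 0.72 for Snhg1, 0.45 for Gas5 and 0.42 for Snhg12.

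Total intron values gave the same 5 hosts as higher in shBmal1, beside 29.3% of 10019 genes. These values may share bases with the exon values, so they are not a separate measure. Of all genes called 52.2% were higher, against 36.2% with upper quartile scaling, under which the count of hosts was again 5. The differences were 0.66 ± 0.051 for Snhg1, 0.57 ± 0.063 for Gas5, 0.48 ± 0.098 for Snhg8, 0.37 ± 0.060 for Snhg12 and 0.28 ± 0.092 for Snhg3, with adjusted p from 3.86e-09 (Snhg1) to 0.0139 (Snhg3). The Snhg3 call was lost without 32 h (adjusted p = 0.0536). Snhg5 differed by 0.05 ± 0.074 (adjusted p = 0.620), with an intron feature that lay mostly outside its RefSeq span.

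The next comparison took the 4sU-labelled RNA, which is enriched for RNA made during the labelling. At exons, 4 of the 6 hosts were higher in shBmal1, beside 27.5% of 11014 genes, and the median difference was 0.22 over the hosts and -0.004 over all genes. Snhg8 ran from 18.8 to 28.9 RPKM in shCTRL (median 22.6) and from 22.1 to 47.2 RPKM in shBmal1 (median 38.5), and was higher at all 12 time points by 0.65 ± 0.074 (adjusted p = 5.20e-07). Snhg1 ran from 10.97 to 17.3 RPKM (median 12.8) and from 15.9 to 24.6 RPKM (median 17.7), and was higher at all 12 time points by 0.51 ± 0.052 (adjusted p = 9.90e-08). Both genes had lines that overlapped here, unlike in total RNA.

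Snhg3 was higher in 4sU exons by 0.25 ± 0.065 (adjusted p = 0.00287), with values from 44.6 to 57.5 RPKM in shCTRL (median 49.6) and from 41.8 to 73.7 RPKM in shBmal1 (median 63.6). Snhg12 was higher by 0.19 ± 0.058 (adjusted p = 0.00886), with values from 5.47 to 6.67 RPKM (median 6.06) and from 5.47 to 8.88 RPKM (median 7.25). For these genes some shBmal1 libraries lay as low as the lowest shCTRL ones.

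Gas5 and Snhg5 did not pass at 4sU exons. Gas5 ran from 13.0 to 17.8 RPKM in shCTRL (median 15.1) and from 12.1 to 19.9 RPKM in shBmal1 (median 16.8), a difference of 0.11 ± 0.049 (adjusted p = 0.0708). That value passed without scaling (0.18, adjusted p = 0.00384), without 26 h (0.13, adjusted p = 0.0345) and without 44 h (0.14, adjusted p = 0.0288). Snhg5 ran from 3.76 to 5.36 RPKM and from 4.07 to 5.93 RPKM, with medians of 4.53 and 4.46, a difference of -0.01 ± 0.060 (adjusted p = 0.886).

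Intron signal of 4sU RNA is the usual proxy for transcription, but for these hosts it may share bases with the exons. It was higher in shBmal1 for 5 of the 6 hosts, beside 22% of 10509 genes. The differences were 0.43 ± 0.066 for Snhg1, 0.33 ± 0.13 for Snhg8, 0.28 ± 0.086 for Snhg3, 0.25 ± 0.061 for Snhg12 and 0.22 ± 0.052 for Gas5, with adjusted p from 3.49e-05 (Snhg1) to 0.0463 (Snhg8). Snhg5 differed by 0.02 ± 0.050 (adjusted p = 0.752). Its intron feature of 26140 bases far exceeds its RefSeq span of 1846, so this value may not reflect transcription of Snhg5. Snhg8 was the least certain: its call, on 53 to 131 reads per library, was lost under 11 of the other settings that kept its sign (adjusted p from 0.0625 to 0.167 over them). The Snhg3 call was lost without time terms (adjusted p = 0.0565). All these 4sU intron differences depend on scaling, because the deposited intron values of the 12 shBmal1 4sU libraries had been divided by totals 1.35 to 1.39 times their exon totals. Unscaled, the median gene differed by -0.45, all 6 hosts were below 0, and 1.74% of all genes called were higher, against 49.6% with scaling.

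**Figure D2:**
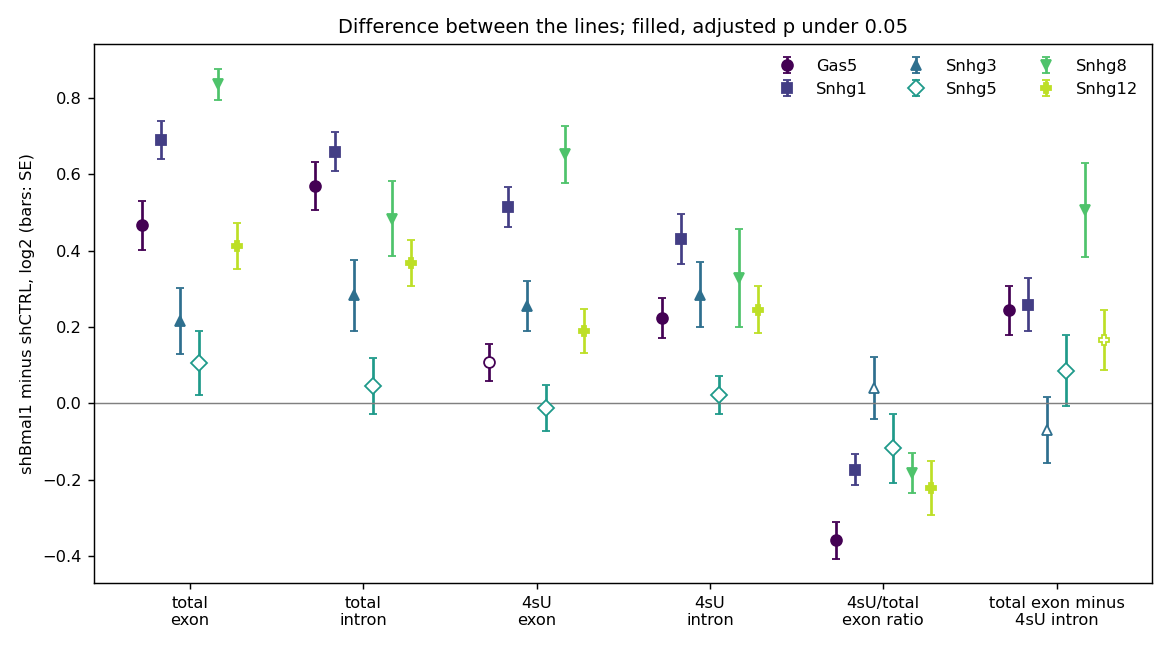
Difference between the lines (shBmal1 minus shCTRL, log2, vertical axis) for the 6 hosts in each of 6 measures, with bars of 1 SE; filled symbols passed the limma test and open symbols did not. Snhg5 passed in no measure, and its intron feature lies mostly outside its RefSeq span. The other hosts lie above 0 in the 4 levels, and Gas5 has the lowest difference of the 4sU/total ratio, at -0.36.

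The ratio of 4sU to total RNA at exons was taken within each culture, so that 0 on the log2 scale is about the median gene of a line. A low ratio marks RNA that is present in excess of what was newly labelled, as for stable RNAs. Among the hosts Snhg3 stood apart. In shCTRL its exon level was 50.2 ± 4.13 RPKM in 4sU RNA and 198.7 ± 20.7 RPKM in total RNA, and the log2 ratio was -1.98 ± 0.057 (SE, n = 12, adjusted p = 8.06e-16), or 0.254-fold. In shBmal1 it was -1.94 ± 0.057 (adjusted p = 9.58e-16). Only 17 of 10870 genes in shCTRL and 15 in shBmal1 had a lower ratio. All 24 Snhg3 ratios lay between -2.51 and -1.68, below every ratio of the other 5 hosts.

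The introns of Snhg3 gave the same picture: 14.6 ± 1.67 RPKM in 4sU RNA and 83.3 ± 9.16 RPKM in total RNA of shCTRL. Their length was recovered in 24 of 48 libraries, so an equal length in the others was not shown. The mean log2 difference was -2.51 in both lines, against a median of 0.44 in shCTRL and 0.45 in shBmal1 over 9987 genes, and 19 genes were lower in each line. RefSeq places Snora73a and Snora73b, 410 bases in all, within the Snhg3 span, and whether their reads entered these values was not tested.

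The other hosts lay nearer the median gene. In shCTRL 3 hosts were above it (Snhg5 at 0.42 ± 0.064, Gas5 at 0.17 ± 0.034 and Snhg1 at 0.14 ± 0.028), beside 42.2% of all genes. Another 3 were below it (Snhg3, Snhg12 at -0.30 ± 0.050 and Snhg8 at -0.19 ± 0.037), beside 42.8%. In shBmal1 1 host was above it (Snhg5 at 0.31 ± 0.064), beside 43.1% of genes, and 4 were below (Snhg3, Snhg12 at -0.53 ± 0.050, Snhg8 at -0.38 ± 0.037 and Gas5 at -0.19 ± 0.034), beside 43.2%. Snhg1 in shBmal1 was at -0.03 ± 0.028 (adjusted p = 0.321). Gas5 was thus above the median gene in one line and below it in the other.

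**Figure D3:**
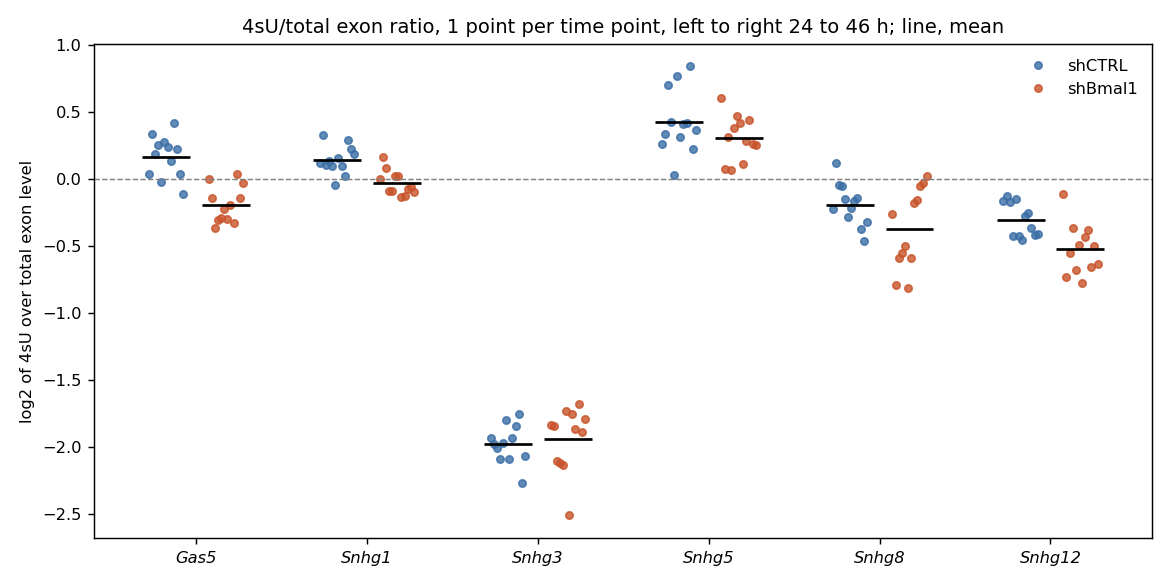
The log2 ratio of 4sU to total exon level (vertical axis) for the 6 hosts, 1 point per culture from 24 h on the left to 46 h on the right of each cloud, shCTRL in blue and shBmal1 in orange, with black lines at the means. Snhg3 lies between -2.51 and -1.68 in both lines, and most shBmal1 points of Gas5, Snhg1 and Snhg12 lie below the shCTRL points.

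The ratio was lower in shBmal1 than in shCTRL for 4 of the 6 hosts and higher for none, beside 12.1% of 10870 genes that were lower. The median difference was -0.18 over the hosts and 0.01 over all genes. Gas5 ran from -0.11 to 0.42 in shCTRL (median 0.21) and from -0.37 to 0.04 in shBmal1 (median -0.21), and 9 of the 12 shBmal1 ratios lay below every shCTRL ratio. Its difference was -0.36 ± 0.049 (adjusted p = 3.02e-05), and 200 genes had a lower one. Snhg1 was lower at 11 of 12 time points, by -0.17 ± 0.040 (adjusted p = 0.00363).

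Snhg12 was lower at 10 of 12 time points, by -0.22 ± 0.070 (adjusted p = 0.0256), and Snhg8 at 9 of 12, by -0.18 ± 0.052 (adjusted p = 0.0143). The Snhg12 call was lost when any of 26, 28, 32, 36, 42, 44 or 46 h was left out (adjusted p up to 0.0786). The Snhg8 call was lost without time terms (adjusted p = 0.160) and with the time point as a block (adjusted p = 0.246). Snhg3 differed by 0.04 ± 0.081 (adjusted p = 0.751) and Snhg5 by -0.12 ± 0.090 (adjusted p = 0.349). Without 34 h the called differences were -0.34 for Gas5, -0.20 for Snhg1, -0.24 for Snhg12 and -0.16 for Snhg8. The larger share of RNA entering the pull-down in shBmal1 cannot be told apart from the line here, although scaling sets the median gene equal.

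The level of exons in total RNA relative to 4sU intron signal is meant to set RNA present against transcription. For these hosts it does not do so cleanly, because exon and intron features may share bases. Most of the Snhg5 intron feature also lay outside its RefSeq span. The measure was higher in shBmal1 for 3 of the 6 hosts, beside 19.5% of 10309 genes. Of all genes called 44.03% were higher, against 98.3% without scaling, when all 6 hosts were called. Snhg8 differed by 0.51 ± 0.12 (adjusted p = 0.00260), Snhg1 by 0.26 ± 0.069 (adjusted p = 0.00548) and Gas5 by 0.24 ± 0.064 (adjusted p = 0.00462). Snhg12 differed by 0.17 ± 0.079 (adjusted p = 0.0941), Snhg5 by 0.09 ± 0.092 (adjusted p = 0.476) and Snhg3 by -0.07 ± 0.086 (adjusted p = 0.536). Gas5 had one of the lowest values of this measure among all genes, 0.48 ± 0.045 in shCTRL, with 99 genes lower, and its introns in total RNA of shCTRL averaged 10.3 ± 1.13 RPKM beside 13.6 ± 1.72 RPKM at its exons.

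Rhythms were tested by a cosine of 24 h in each line. No host passed in shCTRL in total exons, 4sU exons, total introns, 4sU introns or the ratio, beside 3.6%, 1.98%, 1.34%, 1.12% and 0.0184% of all genes (limma). At an unadjusted p under 0.05, 1 host passed in each of these 5 measures: Snhg1 in the first 3, Gas5 in 4sU introns and Snhg8 in the ratio. In shBmal1 none of the 6 hosts passed in total exons, beside 11.1% of genes, with 2 at an unadjusted p under 0.05. The share of all genes at the unadjusted threshold was not taken, so the unadjusted counts cannot be read as rhythm.

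In shBmal1 4sU exons 4 of the 6 hosts passed, beside 17.9% of genes. Snhg8 had an amplitude of 0.38 ± 0.074 (log2, mean to peak) and an adjusted p of 0.00722, Gas5 0.28 ± 0.049 (adjusted p = 0.00310), Snhg3 0.26 ± 0.065 (adjusted p = 0.0282) and Snhg12 0.24 ± 0.058 (adjusted p = 0.0228). The fitted peaks fell between 43.4 h (Snhg8) and 45.3 h (Snhg12). In 4sU introns 2 passed (Gas5 and Snhg3; adjusted p = 0.00937 and 0.0255), beside 5.82% of genes, in total introns 1 (Snhg12, adjusted p = 0.0478), beside 5.17%, and in the ratio 1 (Snhg8, adjusted p = 0.00532), beside 18%. These calls were lost when a linear term for time was added, which left 0 hosts in each of these 4 measures, so a cycle and a drift over the 22 h sampled cannot be told apart. Without 34 h, 4sU exon calls remained for Gas5 (adjusted p = 0.0118) and Snhg8 (adjusted p = 0.0253) and were lost for Snhg12 (adjusted p = 0.0928) and Snhg3 (adjusted p = 0.125). The Gas5 call in 4sU introns (adjusted p = 0.0362) and the Snhg8 call in the ratio (adjusted p = 0.0179) also remained without 34 h. The Snhg3 call in 4sU introns was lost (adjusted p = 0.117), as was the Snhg12 call in total introns (adjusted p = 0.183), which was lost without any single time point but 32 h.

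The difference in rhythm between the lines passed for the Snhg8 ratio alone among the hosts and measures (adjusted p = 0.0446), beside 0.092% of genes, with an amplitude of 0.35 ± 0.052 in shBmal1 and 0.14 in shCTRL. It was lost without 34 h (adjusted p = 0.0962), and passed in only 9 of 19 alternative settings (adjusted p from 0.0236 to 0.221). In 4sU exons the same test gave adjusted p = 0.0533 for Snhg8 and 0.0565 for Gas5. With a 12 h cosine the lowest adjusted p of any host in any measure was 0.0771 (Snhg8, total exons of shBmal1). At an unadjusted p under 0.05 the 12 h cosine passed for 5 of 6 hosts in shBmal1 total introns. It passed for 0 to 2 hosts in the other lines and measures given for 24 h. These unadjusted counts also lack the share of all genes and cannot be read as rhythm.

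**Figure D4:**
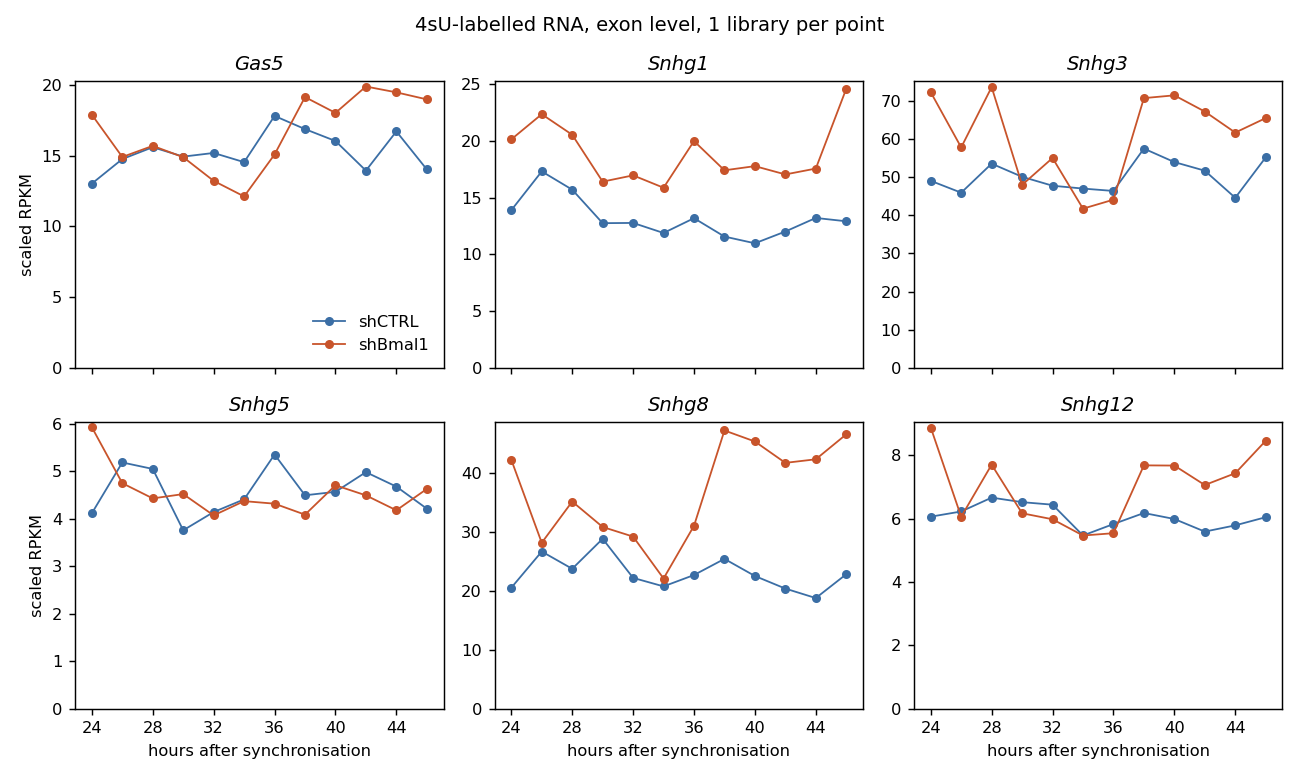
Exon level in 4sU-labelled RNA (scaled RPKM, vertical axis from 0) of the 6 hosts against hours after synchronisation, 1 point per library, shCTRL in blue and shBmal1 in orange. In shBmal1 the 34 h point is the lowest for every host but Snhg5.

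The dip at 34 h was shared by the hosts. In shBmal1 the lowest value fell at 34 h for 5 of the 6 hosts in total exons, 4sU exons and total introns, where 24.6%, 27.5% and 22.3% of all genes had their lowest value at that time. In 4sU introns it did so for all 6, against 26.03% of genes. The single exception in the first 3 measures was Snhg5, which was lowest at 32 h. In shCTRL the lowest total exon values of the hosts were spread over 24, 26, 34 and 42 h. With 1 library per group and time point, time and culture cannot be told apart.

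The hosts varied together over the cultures to differing degrees. With line means removed, Pearson's r over the 24 4sU exon libraries ran from 0.07 to 0.83 over the 15 pairs, with a median of 0.37. In the 12 shCTRL libraries alone r ran from -0.37 to 0.66 (median 0.11), and 6 of the 15 pairs were negative. In the 12 of shBmal1 it ran from 0.19 to 0.95 (median 0.38), and without 34 h from 0.02 to 0.92 (median 0.38). Gas5 with Snhg8 had an r of 0.11 in shCTRL and 0.95 in shBmal1, Snhg3 with Snhg12 of 0.28 and 0.89, and Snhg8 with Snhg12 of 0.66 and 0.87. In total exons the range over both lines was -0.04 to 0.66 (median 0.37). It was -0.50 to 0.81 in shCTRL (median 0.19, 6 pairs negative) and 0.07 to 0.78 in shBmal1 (median 0.45). Without 34 h the median in shBmal1 total exons was 0.20 and 3 pairs were negative, from -0.35 to 0.69. Whether the correlations differ between the lines was not tested. These pairs share libraries and scaling, and the correlations are descriptions. The genes most like Gas5 in total exons by the same measure were Nagk (r = 0.73), Inca1 (0.70) and Sumf1 (0.68) over 24 libraries. Of the other hosts Snhg3 ranked 12th, at 0.63, or 0.43 without 34 h. Snhg12 ranked 330th, Snhg8 336th, Snhg5 988th and Snhg1 3606th (0.14). The median over all genes was 0.01.

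Other genes of the snoRNA pathway were read from lists. The total exon counts below stand beside 34.4% of all genes that were higher in shBmal1 and 33.1% that were lower, and a median difference of 0.01. Of 14 other noncoding snoRNA hosts 7 were listed, and in total exons 4 were higher and 2 lower in shBmal1, with a median difference of 0.28. Snhg15 differed by 0.42 ± 0.043, from 7.95 ± 0.486 to 10.7 ± 0.997 RPKM, and Snhg16 by 0.34 ± 0.084. Snhg14, the long imprinted host, went the other way, by -0.38 ± 0.11. In 4sU introns 4 of these 7 were higher and 0 lower, beside 22% and 22.4% of all genes. Calls there depend on scaling: unscaled, 168 genes were higher, against 2317.

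Among 21 protein-coding snoRNA hosts, mostly genes of ribosomal proteins and translation factors, 13 were higher and 2 lower in total exons, with a median difference of 0.23. The largest differences were in the ribosomal protein genes Rps3 (0.49 ± 0.042), Rpl13a (0.41 ± 0.047) and Rpl7a (0.39 ± 0.035). Their 4sU/total ratio was lower for 8 and higher for 1, with a median of -0.11, beside 12.1% of all genes that were lower and 15.9% that were higher. Of the 8 proteins that assemble on snoRNAs, 6 were higher and 0 lower in total exons (median 0.33), led by the box H/ACA proteins Nhp2 (0.62 ± 0.049) and Gar1 (0.44 ± 0.062) and the box C/D methyltransferase Fbl (0.39 ± 0.068). This list shares genes with that of the protein-coding hosts, so the counts are not separate.

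Of 9 factors of nonsense-mediated decay tested, 3 were higher and 4 lower in total exons (median -0.08), counts near what the shares of all genes would give. The endonuclease Smg6 was lower by -0.37 ± 0.032 and the core factor Upf2 by -0.28 ± 0.094, and Smg5 was higher by 0.29 ± 0.040. Of 11 paraspeckle and speckle proteins 3 were higher and 5 lower (median -0.05), again near those shares, among them the paraspeckle protein Pspc1 (0.35 ± 0.071) and Hnrnpk (-0.33 ± 0.046). Of 5 other long noncoding RNAs listed, Pvt1 was higher by 0.36 ± 0.041 and Oip5os1 lower by -0.83 ± 0.064. Over 435 other RefSeq long noncoding RNA genes tested, 143 were higher and 112 lower, with a median of 0.02.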

How the data were processed

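The authors deposited 2 tables of RPKM, for exons and introns, with 11313 gene symbols in 48 libraries. Trim Galore, HOMER 4.11.1 and mm10 (GRCm38.p6) are named, per the submitters' processing notes; no source used here names the aligner. RPKM values that are whole reads over a whole length gave the library totals and feature lengths (91.9% of exon and 75.8% of intron values), a step tested on simulated data. Each of the 4 kinds of value was scaled to its median gene, and log2 was taken after adding 0.1 (exon) or 0.02 (intron) RPKM, which understates changes of low genes. Genes under a mean of 0.5 (exon) or 0.1 (intron) RPKM were left out; all 6 hosts passed every filter.

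Differences between the lines and 24 h and 12 h cosines per line were fitted in limma 3.58.1 (R 4.3.3; trend and robust variance) over 24 libraries of a kind, with 1 library per time point and Benjamini-Hochberg adjustment over all genes at 0.05. Per-culture log2 differences entered the same model. The p-values measure the spread between cultures of 1 line. All 6 hosts are named; from each list at most 3 genes past the threshold with the largest total exon difference are named, and the 3 genes most like Gas5. A gene that the rule on lists names is not reported here. The genes and lists were chosen with earlier results of these data known. The 10747 symbols found in RefSeq (95.0%) supplied annotation.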

Additional observations from a re-analysis of the deposited data

Results flagged for a closer look

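The gap between 4sU and total exon level differed between the lines, by the test of that difference itself, for Gas5 (-0.36, log2, shBmal1 minus shCTRL), Snhg12 (-0.22), Snhg8 (-0.18) and Snhg1 (-0.17). Of 21 alternative settings, 7 lost the Snhg12 call and 2 the Snhg8 call. The 24 h rhythm of the Snhg8 ratio differed between the lines with an adjusted p of 0.0446, but passed in only 9 of 19 alternative settings.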

How the results depend on the processing

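The 9 alternatives other than leaving out time points were RPKM as deposited, upper quartile scaling, larger pseudocounts (1 exon, 0.2 intron), no filter, no time terms, an added linear term for time, a replicate block, limma without trend and robust variance, and 1 length per gene. Without scaling, 4sU intron differences reversed: Gas5 -0.25, Snhg1 -0.044, Snhg3 -0.19, Snhg5 -0.42, Snhg8 -0.15 and Snhg12 -0.23. No host (0) was then called higher there and 4 were called lower, against 168 and 9484 of all genes. Total exon minus 4sU intron became 0.49 for Snhg3, and 6 hosts and 9421 genes were called. Without time terms, 3 hosts were higher in 4sU introns. With a linear term, 0 hosts were rhythmic in shBmal1, and 11 genes in total exons, 10 in 4sU exons, 1 in total introns, 6 in 4sU introns and 0 in the ratio; in shCTRL 108, 76, 45, 45 and 0 remained. The total intron rhythm count was also 0 without the filter and without trend and robust variance. The Snhg8 difference in rhythm was lost (0 hosts) as deposited and with the linear term, and the count over all genes went from 10 to 197 with larger pseudocounts, 6 without the filter and 0 as deposited.

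Leaving out 1 time point gave 0 to 1 hosts rhythmic in total exons of either line, 0 to 1 in shCTRL 4sU exons, 2 to 4 in shBmal1 4sU exons, 0 to 1 in total introns, 1 to 3 in 4sU introns and 0 to 1 for the difference in rhythm. Counts over all genes then ran from 376 (without 40 h) to 1826 (without 32 h) in shBmal1 total exons and from 641 to 4026, on leaving out the same times, in shBmal1 4sU exons. Counts of hosts that differed between the lines stayed within 1.5 times of the main count in the other settings.

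The time point is the only number the lines share. Same-time cultures deviated together unevenly (r from -0.18 to 0.41 in total exons, over 0.1 for 9 of 12, best with its own time for 5), so the numbers do not pair the cultures. With the time point as a replicate block, Snhg8 lost its calls in 4sU introns (0.33, adjusted p = 0.0805) and in the ratio (-0.18, adjusted p = 0.246), and no other host changed its call between the lines. The 1 line of each kind, the single library per time point and the low intron reads of Snhg8 limit these results.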
